A study of Homo sapiens with 4 samples.

Results

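In HepG2 cells treated with an siRNA against METTL3, 85 genes had gene table rows with almost no reads in the control and more in the knockdown. They were chosen from the gene table the authors deposited: a mean below 5 normalized counts in the control and of at least 15 in the knockdown. A normalized count is a number of reads divided by a size factor that evens out library depth. The table holds 1977 genes, of which 816 (41.3%) were higher in the knockdown, and the 85 are 4.3% of it. Both group means were used to choose the genes, so their levels, fold changes and adjusted p-values are given as a description and support nothing by themselves.

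HepG2 is an established human hepatocarcinoma line. METTL3 was silenced with an siRNA and the control received a scrambled siRNA, which the sample titles call mock, with 2 libraries in each group. Transfection was repeated at 48 and 96 hours, and the cells were collected on day 7, after which poly(A) RNA was sequenced. The design text speaks of biological replicates without saying how the cultures were separated, so p-values reach no further than these 4 libraries. The authors' p-values of genes need not follow the spread between the libraries of a single gene, as 5 genes below show. No clone, sort or second siRNA is named in the labels.

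METTL3 is the catalytic subunit of the enzyme complex that places N6-methyladenosine, or m6A, on messenger RNA, most often within a short GGACT-like motif near the end of the coding region. The mark is read by proteins that can shorten the life of a transcript, alter its splicing or change its translation. Hepatocytes make acute phase proteins when cytokines act on them, while most blood cell, neuronal, keratin and germline genes are silent in liver.

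The targeted gene itself fell. In the authors' deposited table METTL3 had a mean of 955 normalized counts in the controls, against 241 after knockdown. The authors' log2 fold change was -1.99 with an adjusted p of 1.71e-61. Recovered by library as described next, the values were 936 and 975 in the controls, against 253 and 229 after knockdown. The table gives group means only, but each mean is the average of 2 whole read numbers scaled by 2 library factors, and for all 1977 genes exactly 1 pair of whole numbers fitted each mean within 1e-08. These pairs are used below as the reads of the libraries. The libraries are called a and b in each group, since the means do not show which is replicate 1. One read was worth 1.36 and 0.969 normalized counts in control libraries a and b, and 0.834 and 0.901 in knockdown libraries a and b. The listed genes took 1329190 and 1814961 reads in the controls, against 1547182 and 1430267 after knockdown. The control mean of 5 that bounds the set stood for 3.69 and 5.16 reads, and the knockdown mean of 15 for 17.99 and 16.7 reads.

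Of the 85 genes, 76 could be named, 75 through an identifier table and AC092118.1 through GENCODE 29. The other 9 identifiers matched no name. Of the named genes 71 are protein coding, 2 are long intergenic noncoding RNAs, 2 are pseudogenes and 1 is a microRNA gene. By known role, 17 belong to inflammation or blood cells, 15 to ion channels, neurons and muscle, and 5 to epithelia. Another 6 belong to vessels, matrix and coagulation, 4 to germ cells and cilia, and 5 to metabolism and transport. A further 5 are noncoding RNAs or pseudogenes, and 19 have other or unsettled roles. The named genes therefore come from many tissues, and no single tissue accounts for most of them. Roles were assigned to these genes only, so the counts have no share over the other listed genes beside them.

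Promoter sequences are shown for 3 of the genes to let the letters before the start of genes silent in the control be read beside their values. They are the gene with the lowest adjusted p of all, NECTIN4, and the only members whose promoter held the NF-kB motif searched, CCL20 and TFEC. Each line gives the 250 bases before the start of the gene in the RefSeq table of build GRCh38.p14, 5′ to 3′ on the strand of the gene. They lie at chr1:161089559-161089808 (minus strand), chr2:227813592-227813841 (plus strand) and chr7:116030764-116031013 (minus strand). GENCODE 29 models of these genes reach further upstream, so the windows of CCL20 and TFEC lie within their GENCODE span and that of NECTIN4 overlaps its first bases. Capitals mark a match to GGGNNTTTCC on either strand.
NECTIN4: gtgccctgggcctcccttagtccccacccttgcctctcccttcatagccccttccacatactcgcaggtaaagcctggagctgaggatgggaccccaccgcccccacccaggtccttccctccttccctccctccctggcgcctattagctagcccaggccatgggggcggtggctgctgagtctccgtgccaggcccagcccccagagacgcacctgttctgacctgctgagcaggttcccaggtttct
CCL20: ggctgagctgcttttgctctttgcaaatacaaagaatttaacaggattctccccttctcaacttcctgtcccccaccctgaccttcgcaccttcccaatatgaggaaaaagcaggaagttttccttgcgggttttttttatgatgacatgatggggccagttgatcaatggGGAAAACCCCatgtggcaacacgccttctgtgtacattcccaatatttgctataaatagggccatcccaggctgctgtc
TFEC: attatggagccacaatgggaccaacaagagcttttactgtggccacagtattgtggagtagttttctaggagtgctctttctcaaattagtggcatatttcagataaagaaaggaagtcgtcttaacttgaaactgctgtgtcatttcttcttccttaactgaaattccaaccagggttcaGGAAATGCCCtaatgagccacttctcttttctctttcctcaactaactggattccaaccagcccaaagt

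The match begins 79 bases before the start of CCL20 and 69 bases before that of TFEC, and NECTIN4 has none. The motif GGGNNTTTCC was searched on both strands in a window of 300 bases, the last 50 of them after the start. It was found in 2 of the 59 promoters of members that the table holds (3.39%) and in 523 of all 27305 promoters (1.92%). The AP-1 motif TGANTCA, searched on both strands, was in 8 of the 59 (13.6%) and 7.76% of all, and TATAAA, searched on the sense strand, in 6 (10.2%) and 7.71% of all. A match is a description of letters and no evidence that a factor was bound. Of the 76 named genes 77.6% had a promoter in the table, under the 80% needed for a comparison of the set, so that comparison is void. Of the 59 promoters, 32 (54.2%) had a ratio of observed to expected CpG under 0.6, near the 51.0% of all promoters, with 26.9% for the other higher genes, and the ratios ran from 0.0871 to 1.42.

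The microRNA gene of the set, MIR663B, is shown because its row measures the gene and not the mature microRNA. Poly(A) libraries do not capture mature microRNAs. The mature strand, with the seed of bases 2 to 8 in capitals, and the hairpin, with the mature part in capitals, read as follows in RefSeq, at chr2:132256970-132256991 and chr2:132256966-132257080 (both minus strand, GRCh38.p14).
hsa-miR-663b: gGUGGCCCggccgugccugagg
MIR663B hairpin: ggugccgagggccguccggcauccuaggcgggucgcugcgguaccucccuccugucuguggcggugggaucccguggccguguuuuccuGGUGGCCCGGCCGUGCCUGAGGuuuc

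MIR663B had 2.71 and 3.87 normalized counts in the controls, against 16.7 and 18.9 after knockdown, and the groups did not overlap. This was 6 reads against 41, and the authors' deposited adjusted p was 0.0388.

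Most of the 85 genes remained low in the knockdown, in normalized counts, which are not scaled for gene length. Their knockdown means ran from 15.1 to 195 normalized counts with a median of 26.4, against a median of 137 over all listed genes and 255 over the other higher genes. Of the 85, 53 lay from 15 to 30, 22 from 30 to 60, 6 from 60 to 100, and 4 at 100 or more. All but 2 were below the median knockdown mean of the listed genes. In reads, the whole set went from 396 in the control to 7315 in the knockdown, and a single gene had 35 to 450 knockdown reads, with a median of 61. On the control side 9 genes had no read, 25 had 1 to 3 reads and 51 had 4 to 9 reads. Near silent therefore means between 0 and 9 reads in the gene row over both control libraries, which does not hold for every exon or intron of these genes. In these bulk samples, fewer cells expressing a gene and less RNA per cell cannot be told apart.

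**Figure D1:**
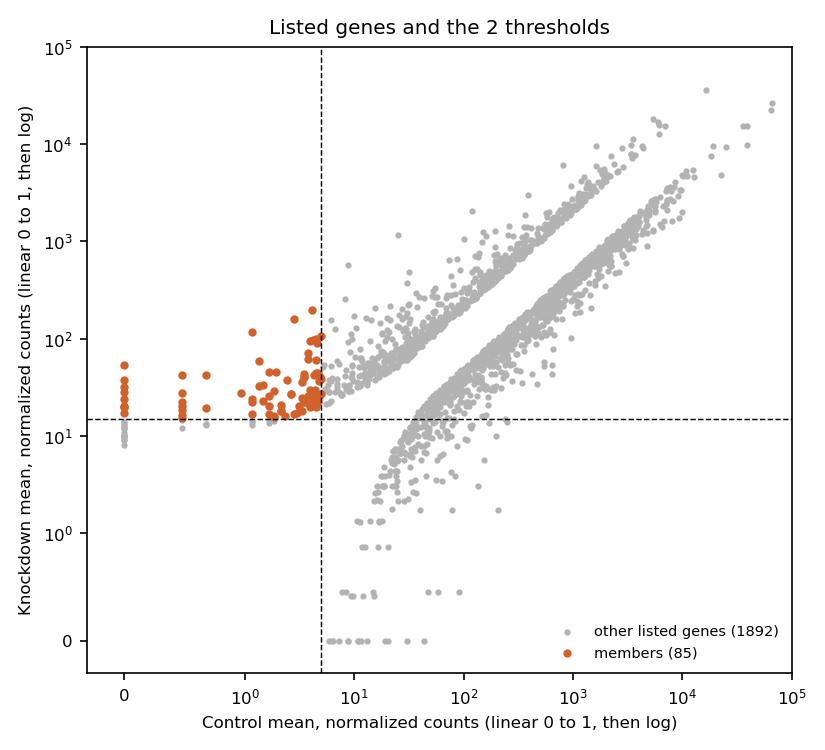
Control mean against knockdown mean of each gene of the authors' deposited gene table, in normalized counts, on axes that are linear from 0 to 1 and logarithmic above. The dashed lines are the thresholds of 5 and 15, the 85 chosen genes are orange and the other 1892 are grey, and the orange points sit low on the vertical axis, between 15.1 and 195.

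The 4 genes at or above 100 normalized counts were UGT1A6, NECTIN4, the ribosomal protein L21 pseudogene RPL21P65 and MFSD2A. Next came IL1B, F2RL2, KCNH1, ACP5, NLRP1 and AGT, between 61.8 and 99.6. The authors' deposited log2 fold changes of the 76 genes with a control read ran from 2.16 to 6.67 with a median of 3.40, against 1.34 over the other higher genes. The rule itself requires a fold change of this kind. The authors' deposited adjusted p-values ran from 1.93e-31 for NECTIN4 to 0.0461 for POM121L9P, with 44 below 0.001 and 21 at 0.01 or more.

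In 80 of the 85 genes both knockdown libraries had reads, and in all of these 80 each knockdown library was above each control library. Of the other higher genes with a knockdown mean of at least 15, 703 of 704 (99.9%) were separated in the same way, so the separation is not particular to the set. The rule itself, with a low control mean and a higher knockdown mean, favours it. Where the groups of a gene are said to be separated or not to overlap, this is a description only. The lowest knockdown library was at least 3.44 times the highest control library in the 80 genes. The highest control value of any library was 8.13, in ACP5, and the lowest knockdown value was 11.7, in MROH9, a HEAT repeat protein. The higher knockdown library was a median of 1.201 times the lower one, and at most 1.88 times, in THSD1. Knockdown library a was the higher one in 36 of the 80 genes and library b in 44. Both thresholds were met in every single library by 55 of the 85 genes; in 19 a control library reached 5 or more, and in 11 a knockdown library was under 15.

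**Figure D2:**
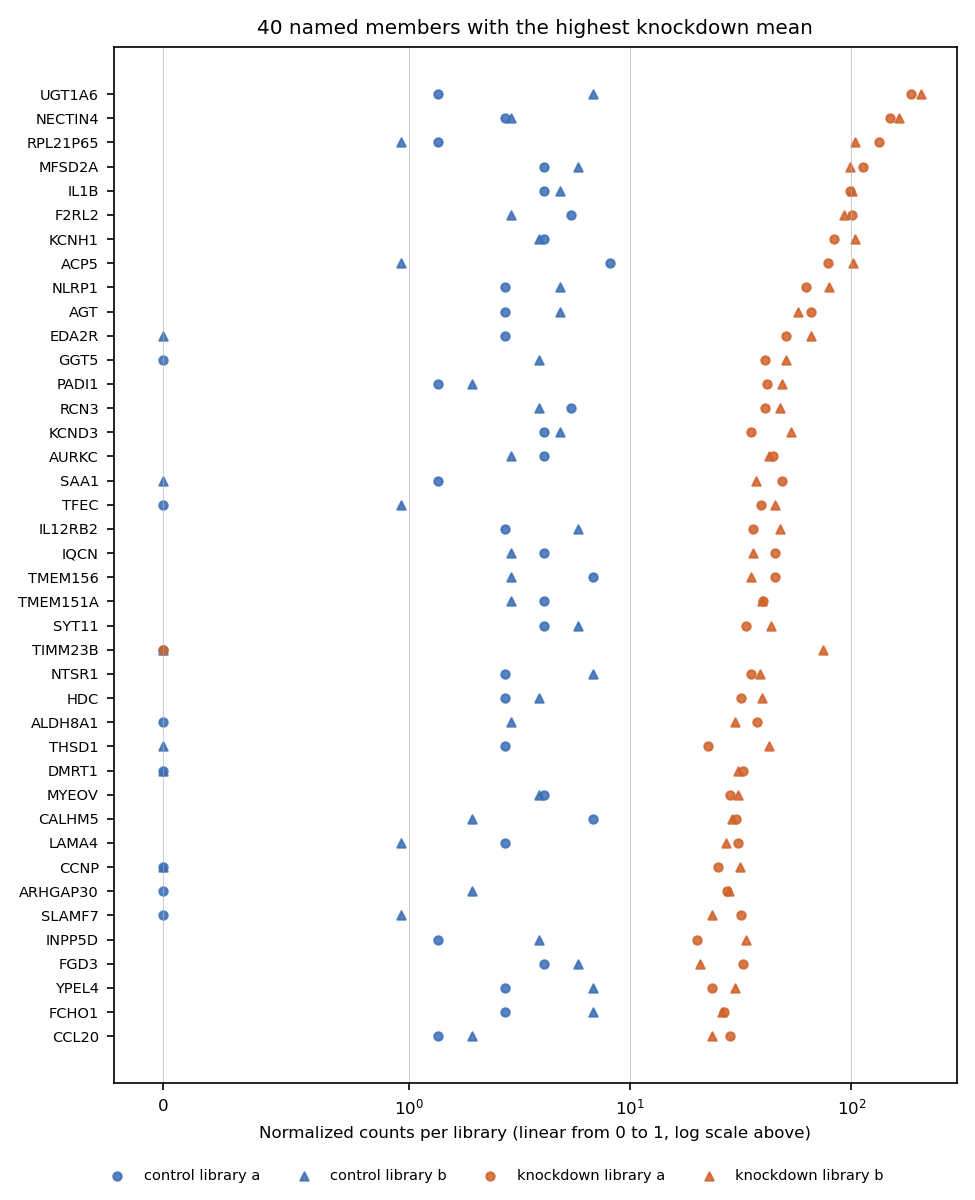
Normalized counts of the 40 named genes with the highest knockdown means in each of the 4 libraries, on an axis that is linear from 0 to 1 and logarithmic above, with circles for library a and triangles for library b of each group. Control points lie at 8.13 or below and knockdown points to their right in each row, except that knockdown library a of TIMM23B is at 0.

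The other 5 genes had all of their knockdown reads in 1 library. TIMM23B, a copy of a subunit of the mitochondrial import translocase, had 0 reads in both control libraries and in knockdown library a, and 83 reads in knockdown library b. C5orf60, a gene without a settled function, had 53 reads in knockdown library b and 0 in the others. ENSG00000203827, an identifier without a name, had 118 reads in knockdown library b and 0 in the others. The remaining pair, also unnamed, had 45 reads in knockdown library b beside 1 control read, and 41 reads in knockdown library a beside none. For these 5 genes the groups overlap or touch, so the rise rests on 1 library. The authors' deposited adjusted p for them nevertheless ran from 3.93e-10 to 0.00206. Such a pattern occurred in 5.88% of the set and in 0 of the 704 other higher genes with a knockdown mean of at least 15. TIMM23B has the near-identical TIMM23 as a relative, and the treatment of shared reads by the authors is not given in these sources. The part of shared reads in these 5 values was not tested.

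**Figure D3:**
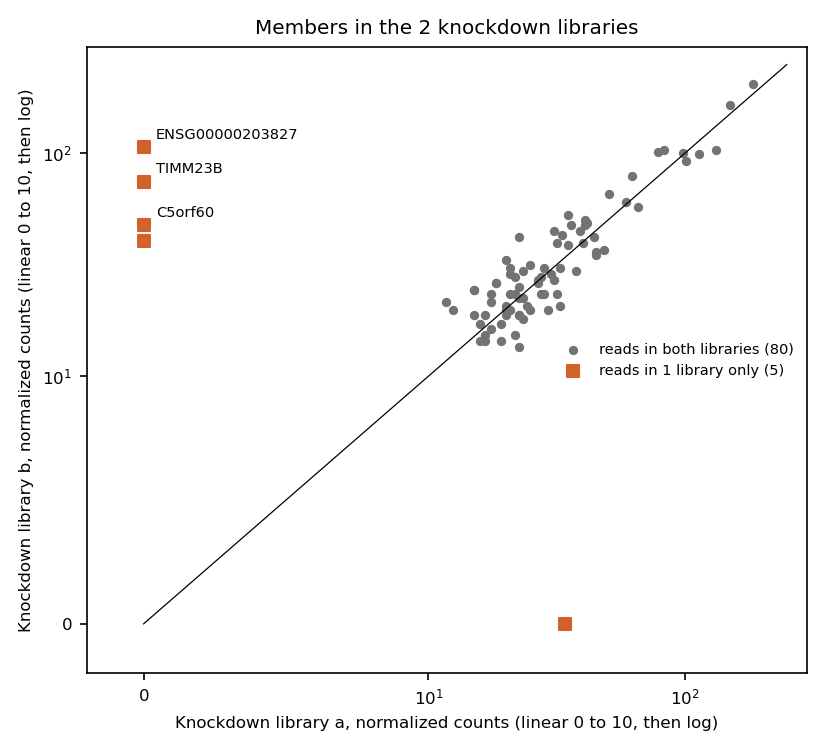
Normalized counts of the 85 genes in knockdown library a against knockdown library b, on axes that are linear from 0 to 10 and logarithmic above, with the line of equal values. The 80 genes with reads in both libraries lie near the line, at most 1.88-fold from it, and the 5 others (squares) lie on an axis.

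Inflammation and blood cell genes formed the largest group of known role in the set, with 17 members and a median knockdown mean of 27.7. No such count was made for the other listed genes. The next group had 15 genes, so the order depends on how single genes, such as EDA2R and GSDMC, were placed. IL1B (chr2:112829751-112836903, minus strand, GRCh38, as are the gene positions below) encodes the cytokine interleukin-1 beta. It had 4.07 and 4.84 normalized counts in the controls, against 98.4 and 101 after knockdown, the highest mean of the group. The knockdown libraries differed little from each other and lay far above both controls. Scaled for depth, the reads rose 22.0-fold (95% counting interval 11.0 to 51.6, exact). All such intervals cover counting error only and not the spread between cultures.

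Other products of inflammation had fewer reads. SAA1 (chr11:18266174-18269977, plus strand), an acute phase apolipoprotein made by liver, had 1.36 and 0 normalized counts in the controls, against 48.4 and 36.9 after knockdown. With 1 control read its fold of 75.9 has an interval from 13.3 to 3026. The near-identical SAA2, also listed as higher, can share its reads. CCL20, a chemokine that draws CCR6-bearing lymphocytes and dendritic cells, had 1.36 and 1.94 in the controls, against 28.3 and 23.4 after knockdown, a fold of 15.3 (5.00 to 76.4). PTX3, a soluble pattern recognition protein, had 2.71 and 5.81 against 21.7 and 23.4, a fold of 4.98 (2.35 to 12.1). In these 3 genes the knockdown libraries stood above both controls. HDC, which makes histamine, had 2.71 and 3.87 against 31.7 and 39.6.

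Receptors, an inflammasome sensor and a gasdermin placed in the same group followed. CD14, the lipopolysaccharide co-receptor of monocytes, had 5.42 and 3.87 normalized counts in the controls, against 20.8 and 28.8 after knockdown. NLRP1, an inflammasome sensor, had 2.71 and 4.84 against 62.5 and 79.3. IL12RB2, a chain of the interleukin-12 receptor, had 2.71 and 5.81 against 35.9 and 47.7. The groups did not overlap in any of these, and NLRP1 went furthest, 17.8-fold (8.47 to 45.1). EDA2R, the receptor of ectodysplasin A2 in the TNF receptor family and a known p53 target, had 2.71 and 0 against 50.9 and 65.7, a fold of 51.3 (13.9 to 428). CSF1R, the receptor of macrophage colony-stimulating factor, had 4.07 and 2.91 against 18.3 and 26.1. GSDMC, of the gasdermin family, had 2.71 and 4.84 against 20.8 and 30.6. Neither overlapped between the groups.

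Genes usually tied to particular blood cells were also in the set. TFEC (chr7:115935148-116159896, minus strand), an MiT family transcription factor of macrophages, had 0 and 0.969 normalized counts in the controls, against 39.2 and 45.03 after knockdown, a fold of 74.3 on 1 control read (13.0 to 2966). SLAMF7, a surface receptor of natural killer and plasma cells, had 0 and 0.969 against 31.7 and 23.4, a fold of 49.0 (8.49 to 1967). ACP5, the tartrate-resistant acid phosphatase of osteoclasts and macrophages, had 8.13 and 0.969 against 78.4 and 102. The control libraries of ACP5 differed more from each other than those of any other gene of the group, and both were still far below the knockdown libraries. INPP5D, the phosphatase SHIP1 of blood cells, had 1.36 and 3.87 against 20.01 and 33.3. ARHGAP30, a GTPase activating protein of blood cells, had 0 and 1.94 against 27.5 and 27.9. CD7, a T cell surface protein, had 2.71 and 1.94 against 16.7 and 15.3 and sat just above the knockdown threshold.

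Channel, neuronal and muscle genes made up the next group, 15 genes with a median knockdown mean of 23.9. KCNH1 (chr1:210676823-211134180, minus strand), the voltage-gated potassium channel EAG1, led it with 4.07 and 3.87 normalized counts in the controls, against 83.4 and 104 after knockdown. Its fold was 23.5 (11.2 to 59.2). KCND3, the voltage-gated potassium channel Kv4.3, had 4.07 and 4.84 against 35.0 and 53.1. Both channels were separated between the groups, KCNH1 by the larger fold. KCNJ12, an inward rectifier potassium channel of heart with near-identical copies, had 2.71 and 3.87 against 29.2 and 19.8.

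Receptors of neurons in the set were NTSR1, which binds neurotensin, and HTR6, a serotonin receptor of brain. NTSR1 had 2.71 and 6.78 normalized counts in the controls, against 35.0 and 38.7 after knockdown. HTR6 had 1.36 and 0.969 against 17.5 and 16.2, a fold of 14.9 on 2 control reads (3.87 to 128). Both receptors were separated between the groups, and HTR6 stayed close to the threshold. TMEM151A, a transmembrane protein of brain, had 4.07 and 2.91 against 40.02 and 39.6, and SYT11, a synaptotagmin of vesicle traffic, had 4.07 and 5.81 against 33.4 and 43.2.

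TNNT2, cardiac troponin T, had 0 and 0.969 normalized counts in the controls, against 20.8 and 23.4 after knockdown, a fold of 39.1 on 1 control read (6.71 to 1573). GOLGA7B, a partner of palmitoyltransferases, and MARCHF4, a membrane ubiquitin ligase, had no control read. Against a floor of 3 reads over the control group they were at least 12-fold and 11.5-fold higher. MARCHF4 had the same 4 read numbers as an unnamed identifier, 0 and 0 in the controls, against 18 and 27 after knockdown, and whether the 2 rows count the same reads was not tested. Others of the group, CALHM5, DISP2, MAP7D2 and NKAIN1, had knockdown means from 20.7 to 29.4.

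Epithelial genes numbered 5. NECTIN4 (chr1:161070995-161089599, minus strand), an adhesion molecule of epithelial junctions whose promoter is printed above, had 2.71 and 2.91 normalized counts in the controls, against 150.1 and 165 after knockdown. The 2 libraries of each group were close together, and the fold was 55.6 (23.6 to 172). PADI1 (chr1:17205126-17246005, plus strand), a peptidylarginine deiminase of epidermis, had 1.36 and 1.94 against 41.7 and 48.6, a fold of 26.6 (8.84 to 131). KRT4, a keratin of mucosal epithelium, had 1.36 and 2.91 against 22.5 and 18.9. All 3 were separated between the groups. TFF2, a trefoil peptide secreted by the stomach, had 0 and 0.969 against 21.7 and 15.3. The neighbour of PADI1, PADI2, had 1.36 and 2.91 against 22.5 and 13.5, so its knockdown library b was below the threshold.

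Vessel, matrix and coagulation genes numbered 6. F2RL2 (chr5:76615482-76623434, minus strand), the protease-activated receptor PAR3, had 5.42 and 2.91 normalized counts in the controls, against 101 and 92.8 after knockdown, a fold of 24.5 (11.7 to 61.7). AGT, angiotensinogen, the precursor of angiotensin that hepatocytes secrete, had 2.71 and 4.84 against 65.9 and 57.6, a fold of 15.7 (7.40 to 39.6). Both lay far above their controls in each knockdown library. RCN3, a calcium-binding protein of the endoplasmic reticulum, had 5.42 and 3.87 against 40.9 and 47.7. THSD1, a membrane protein of endothelium, had 2.71 and 0 against 22.5 and 42.3, the largest ratio between knockdown libraries among the 80 genes. LAMA4, a laminin chain of vessel basement membrane, and S1PR1, the sphingosine-1-phosphate receptor, had knockdown means of 28.9 and 22.5.

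The group of metabolism and transport held 5 genes, among them the gene with the most knockdown reads of the set. UGT1A6 (chr2:233691607-233773300, plus strand), a glucuronosyltransferase of phenols, had 1.36 and 6.78 normalized counts in the controls, against 185 and 205 after knockdown. The control libraries differed by 1 read against 7, the knockdown libraries were close, and the fold was 43.1 (21.7 to 100.5). UGT1A6 shares its later exons with the other genes of the UGT1A locus, so its reads are uncertain. MFSD2A (chr1:39955112-39969968, plus strand), a transporter of lysophosphatidylcholine, had 4.07 and 5.81 against 113 and 99.1, a fold of 20.9 (10.9 to 46.4). GGT5, a gamma-glutamyltransferase that acts on leukotriene C4, had 0 and 3.87 against 40.9 and 50.4, and has near relatives. ALDH8A1, an aldehyde dehydrogenase of liver and kidney, and DHRS9, a retinol dehydrogenase, had knockdown means of 33.6 and 20.4.

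Germ cell and cilia genes numbered 4. DMRT1 (chr9:841690-969090, plus strand), a transcription factor of testis development, had no control read and 32.5 and 30.6 normalized counts in the knockdown libraries, at least 18.6-fold higher than the floor of 3 reads. Its reads were evenly split between the knockdown libraries. AURKC, the Aurora kinase of meiosis, had 4.07 and 2.91 against 44.2 and 42.3, a fold of 12.8 (5.67 to 35.6). IQCN, a protein of sperm, had 4.07 and 2.91 against 45.03 and 36.0. CFAP210, a protein of cilia, had the smallest log2 fold change of the 76, 2.16 in the authors' deposited table, and an authors' deposited adjusted p of 0.0411.

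Of the noncoding and pseudogene members, RPL21P65 (chr6:106642463-106642928, plus strand) had 1.36 and 0.969 normalized counts in the controls, against 133 and 104 after knockdown, a fold of 105.0 on 2 control reads (28.8 to 871). Its sequence nearly repeats that of an expressed ribosomal protein gene, so the assignment of its reads is uncertain, and the same holds for POM121L9P, which has many relatives. MIR99AHG, the host transcript of miR-99a, let-7c and miR-125b-2, had 4.07 and 1.94 against 15.01 and 18.9. AC092118.1, a long intergenic noncoding RNA, had 2.71 and 0.969 against 12.5 and 19.8. Both noncoding RNAs stayed near the threshold.

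The 19 genes of other or unsettled role reached knockdown means of 15.1 to 40.1. TMEM156, a transmembrane protein, was the highest, with 6.78 and 2.91 normalized counts in the controls, against 45.03 and 35.1 after knockdown. CIART, a repressor of the circadian clock, had 1.36 and 4.84 against 17.5 and 23.4. CYRIA, which binds Rac1, had 1.36 and 0 against 20.01 and 18.9. FCHO1, an endocytosis adaptor, had 2.71 and 6.78 against 26.7 and 26.1, and LDLRAD4, an inhibitor of TGF-beta signalling, had 5.42 and 2.91 against 27.5 and 23.4. The groups did not overlap in any of these. CCNP, a cyclin, had no control read and 25.01 and 31.5 after knockdown, at least 16.6-fold higher than the floor. MYEOV and C6orf132 had knockdown means of 29.5 and 18.1. The 9 unnamed identifiers had knockdown means from 16.8 to 59.8, the highest being ENSG00000143140 with 4.07 and 4.84 against 59.2 and 60.3.

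The authors' deposited adjusted p did not follow the fold alone. UGT1A6 with control reads of 1 and 7 had 8.68e-13, while NECTIN4 with control reads of 2 and 3 and fewer knockdown reads had 1.93e-31. ACP5 with control reads of 6 and 1 had 1.17e-05, GGT5 with 0 and 4 had 0.00358, and THSD1 with 2 and 0 had 0.0209. These are values of single genes, and the relation was not tested.

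Genes next to the thresholds show how the set is bounded. Just inside the control limit were SYT11, MFSD2A and FGD3, each with a control mean of 4.94. Just outside it were the neutrophil chemokine CXCL8 with 5.13 and a knockdown mean of 50.5, the pregnancy glycoprotein gene PSG7 with 5.33 and 53.8, and the pseudogene ZSCAN12P1 with 5.42 and 30.5. FGD3, an exchange factor of CDC42, had 4.07 and 5.81 against 32.5 and 20.7. Just inside the knockdown limit were ARMCX1 with 15.1, CCDC149 with 15.5 and CD7 with 15.99. ARMCX1, an armadillo repeat protein of mitochondria, had 0 and 0.969 against 15.8 and 14.4, and the coiled-coil protein CCDC149 had 2.71 and 0.969 against 16.7 and 14.4. Just outside it were SNORA14A with 14.4, RCSD1 with 14.5 and CHRNA9, a nicotinic acetylcholine receptor subunit, with 14.5. In all, 27 higher genes had a control mean under 5 but a knockdown mean under 15. The limits thus fall within a continuous range of values.

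Gene lists of pathways and cell types place the set among the listed genes. The NF-kB, acute phase and chemokine list of 55 genes had 18 in the gene table, 17 higher and 1 lower, against 41.3% higher over the table, and 4 of the 17 belong to the set: CCL20, IL1B, PTX3 and SAA1. Its listed genes had a median log2 fold change of 2.43, against -1.10 over the table. Of 49 direct targets of p53, 24 were listed, 21 higher and 3 lower, and EDA2R and INPP5D belong to the set. Earlier results on these libraries already showed the inflammatory genes higher, so these counts are no independent evidence.

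Marker lists of other cell types had few listed genes. Of 78 blood cell surface and immune genes 8 were listed, 5 higher and 3 lower, with CD14, SLAMF7 and TFEC in the set. Of 61 epithelial junction and keratin genes 12 were listed, 8 higher and 4 lower, with KRT4 and NECTIN4 in the set. Of 50 muscle contractile genes 10 were listed, 6 higher and 4 lower, with TNNT2 in the set. Neither the 58 neural and neuroendocrine genes (9 listed, 6 higher) nor the 26 endothelial genes (3 listed, 2 higher) had a member in the set. Of 47 genes of the TNF receptor and ligand family 9 were listed, 5 higher and 4 lower, with EDA2R in the set, and of 50 germline and cancer-testis genes 2 were listed, 1 in each direction, with DMRT1 in the set.

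Of 60 hepatocyte genes 5 were listed, 2 higher and 3 lower, with UGT1A6 in the set. Unchanged genes are outside the tables and have no value here. The hepatocyte identity of the line could therefore not be checked against its markers. Of 34 solute carriers of blood and kidney epithelia 4 were listed, 1 higher and 3 lower, none in the set. METTL3 was the 1 listed gene of 11 m6A writers, and it was lower. In all 12 lists together 14 of the 85 genes occur, so most of the set lies outside them. The part of other cells in these values was not tested.

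Isoforms were estimated separately by the authors, in FPKM, which scales reads for transcript length and depth and allows levels to be compared between genes. Of the 76 named genes 56 (73.7%) had at least 1 isoform in the isoform table, against 555 of the 660 other named higher genes (84.1%). These 56 genes had 62 isoforms, 1 each in 50 genes and 2 each in 6. All 62 were higher in the knockdown, while 46.7% of all 7251 listed isoforms were. Of the 555 other named higher genes with a listed isoform, 531 (95.7%) had higher ones only. Over all named genes this was 56 of 76 in the set (73.7%) and 531 of 660 in the others (80.5%). Isoforms were quantified from the same reads as the genes and give no independent check of the rise.

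By length-scaled level the listed isoforms of the set were low too. The knockdown FPKM of the 62 isoforms ran from 0.0426 to 8.69 with a median of 0.488, against 2.59 over the 3385 higher listed isoforms. Of the 62, 10 (16.1%) exceeded 1 FPKM, against 70.0% of the higher listed isoforms, and 32 were under 0.5. The control FPKM had a median of 0.0471 and did not exceed 0.356. SAA1 was the highest, at 0.0579 FPKM in the control and 8.69 in the knockdown in the authors' deposited table. IL1B followed with 0.146 and 3.60, ACP5 with 0.147 and 3.11, and NECTIN4 with 0.0531 and 2.81 FPKM in the authors' deposited table.

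The order of listed isoforms by FPKM differs from that of genes by normalized counts. TFF2, among the lower genes by counts, had a listed control value of 0 and a knockdown value of 1.92 FPKM. AURKC had 0.154 and 1.76, MIR99AHG 0.356 and 1.65, AGT 0.115 and 1.58, CCL20 0.0433 and 1.49, and RCN3 0.197 and 1.41 FPKM in the authors' deposited table. By role, 4 of the 10 genes over 1 FPKM were inflammation or blood cell genes, 2 epithelial, 2 of vessels and matrix, 1 of germ cells and 1 noncoding. None of the 15 channel, neuronal and muscle genes had a listed isoform over 1 FPKM, though 13 of them had a listed isoform. The listed isoforms of F2RL2 and KCND3, genes with high read numbers, had only 0.553 and 0.289 FPKM in the knockdown. Unlisted isoforms of a gene have no value here, so these are not levels of whole genes.

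**Figure D4:**
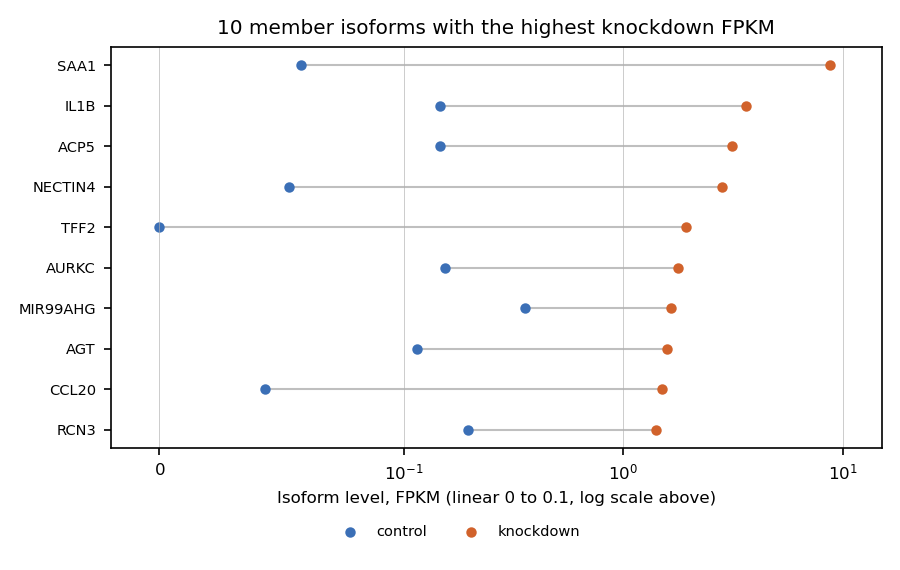
Level of the 10 isoforms of the set with the highest knockdown values, in FPKM from the authors' deposited table, in the control (blue) and the knockdown (orange), 1 value per group without replicates, on an axis linear from 0 to 0.1 and logarithmic above. Every orange point is to the right of its blue point and above 1 FPKM, and SAA1 is the highest at 8.69.

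Of the 62 isoforms 9 were listed at 0 in the control, each in a different gene, among them TFF2, CCNP and DMRT1. An FPKM of 0 can be a failed estimate, so no fold is given for them. The genes with a pair of listed isoforms include TFEC, at 0.00426 and 0.160 FPKM for one isoform and 0 and 0.142 for the other, and THSD1, at 0.0981 and 0.507 for one and 0 and 0.303 for the other. In FGD3 the pair had nearly equal values, 0.0433 and 0.230 FPKM in both.

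The 20 named genes without an isoform matched by name were ALDH8A1, ARHGAP30, C5orf60, CCDC148, CCDC149, CSF1R, EDA2R, GGT5, IQCN, KCNH1, MAP7D2, MFSD2A, MIR663B, MROH9, NLRP1, RPL21P65, SLAMF7, TIMM23B, UGT1A6 and AC092118.1. They include several of the highest genes by reads, such as UGT1A6, MFSD2A, KCNH1 and NLRP1. A transcript identifier matched AC092118.1 to an isoform that stood at 0.127 FPKM (control) and 0.920 FPKM (knockdown), as the authors' deposited table has it. By identifier alone a further transcript, which the table names for another locus, matched TMEM156, and its level was lower after knockdown, 1.02 FPKM against 5.17. Its name and its identifier go against each other, so it is not counted. Of the 5 genes of metabolism and transport only DHRS9 had a listed isoform, while all 5 epithelial and all 6 vessel genes did. This contrast depends on how the genes were grouped, since AGT, which hepatocytes secrete, was placed with the vessel genes.

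Introns of the set were rarely listed. The intron table gives reads within single introns, 28.3% of its 2672 introns were higher in the knockdown, and 5 of the 85 genes (5.88%) had one there, against 16.7% of the other higher genes. These 5 had 7 listed introns. Reads of each library were recovered from the intron means with a wider tolerance than for genes. Of the 2672 introns, 2508 control means and 2234 knockdown means fitted a single pair of whole numbers. The means of the 7 introns here did so in both groups. IL12RB2 (chr1:67307364-67397090, plus strand) had 3, all higher. Its intron 15 went from 21.8 and 25.1 normalized counts in the control libraries to 173 and 155 in the knockdown libraries, intron 14 from 11.7 and 9.66 to 61.5 and 53.8, and intron 9 from 2.91 and 1.93 to 36.8 and 52.98. In each intron both knockdown libraries were above both controls. Intron 15 alone, with a mean of 164, held more normalized counts in the knockdown than the gene row, with 41.8, though the tables were normalized separately. In the control libraries intron 15 had 15 and 26 reads and intron 14 had 8 and 10, against 2 and 6 in the gene row. By these introns IL12RB2 was not silent in the control.

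PADI1 had 1 listed intron, number 15, which went from 8.74 and 2.90 normalized counts to 91.1 and 83.2, with an authors' deposited adjusted p of 0.000227. An unnamed gene had 1 higher intron, from 29.1 and 24.2 to 86.3 and 103. Its gene row had 1.36 and 0.969 against 18.3 and 26.1, so its intron, with 20 and 25 control reads, was not silent in the control. Lower introns occurred in 2 of the 5 genes. Intron 1 of FCHO1 went from 32.0 and 7.73 to 0.799 and 1.68 while the gene row was higher, with an authors' deposited adjusted p of 0.0490. The control libraries of that intron differed 22 reads to 8, and neither overlapped the knockdown.

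ENSG00000203827 went in different directions in different tables. Its gene row had no control read and all 118 knockdown reads in 1 library. Its intron 8 had 109 and 374 normalized counts in the controls, against 106 and 132.02 after knockdown, so the groups overlapped, and the authors' deposited table lists it as lower. Its exon 10 had 314 and 363 normalized counts in the control, a mean of 339 ± 34.5 (SD), and 49.5 and 56.6 in the knockdown, a mean of 53.05 ± 5.04 (SD). A gene with an exon well covered in both control libraries was thus counted with no read in the gene table. By its exon and intron values this gene was not silent in the control, and it was kept in the set because the rule selects it. The cause of the difference between tables was not tested.

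An exon locus that holds a gene of the set was listed for 2 of the 85 (2.35%), against 3.15% of the other higher genes, counting loci merged from several genes. In loci of a single gene it was 1 of the 85 (1.18%), ENSG00000203827, against 7 of 731 (0.958%). Both exons were lower. The exon table is the only one with a value for every library, so exons were tested with limma on log2(value + 1) over all 474 listed exons. This called 456, of which 145 were higher and 311 lower. The exons had been selected by the authors on the same libraries. Exon 10 of ENSG00000203827 had a limma log2 fold change of -2.65 ± 0.17 (SE) with a limma adjusted p of 0.000689. Its log2 fold change in the authors' deposited table was -1.89. The other exon, number 18, belongs to a locus that the authors merged from IK, a splicing factor gene, and CD14, and cannot be assigned to CD14. It had 12.6 and 38.3 normalized counts in the controls, against 2.60 and 0.928 after knockdown. Its log2 fold change was -4.26 in the authors' deposited table. In limma it was -3.13 ± 0.63 (SE) with a limma adjusted p of 0.00799. That call was lost without control replicate 2 (-2.36, limma adjusted p of 0.0544), knockdown replicate 1 (-3.58, limma adjusted p of 0.0817) or knockdown replicate 2 (-2.68, limma adjusted p of 0.125). In these fits 1 group has a single library, which is assumed to vary like the other group, and the fold changes stayed negative. It was also lost, at an adjusted p of 0.0569, when the exons were recentred on their median. For a single exon in 2 against 2 libraries, the smallest p of an exact permutation test is 0.333.

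Counting over tables, 27 of the 85 genes (31.8%) had no listed isoform, intron or exon, against 153 of the 731 other higher genes (20.9%) and 389 of all 1977 (19.7%). Among the 27 were 7 of the 9 unnamed genes, whose isoforms could not be matched by name. Of the named genes alone it was 26.3%, against 13.9% of the other named higher genes. FCHO1 and ENSG00000203827 had a listed intron or exon that was lower while the gene row was higher.

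By position in GENCODE 29 (GRCh38), 17 of the 76 named genes (22.4%) lie on chromosome 1, against 11.1% of the other named higher genes, and 10 (13.2%) on chromosome 2, against 5.61%. Chromosome 19 holds 7. No test was made, since positions were looked at after the genes were chosen. Of the 76, 17 (22.4%) had another higher gene within 100000 bases, against 139 of 660 (21.1%) of the other named higher genes. In 3 pairs both neighbours belong to the set. ARHGAP30 (chr1:161046946-161069970) begins 1024 bases downstream of NECTIN4, both on the minus strand. GGT5 and POM121L9P lie 6685 bases apart on chromosome 22 and point away from each other. PADI2 and PADI1 lie 85690 bases apart on chromosome 1.

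The GGACT motif, the core letters at which METTL3 often acts, was counted on the sense strand of the longest coding transcript in GENCODE 29. The 71 coding genes of the set had a median of 3 sites. Pooled over transcripts the set had 1.08 sites per kilobase, the other higher genes 1.03, the lower genes 0.945 and all coding genes 0.984. The median over genes was 0.990 per kilobase in the set, 1.01 in the other higher genes, 0.889 in the lower genes and 0.927 in all coding genes, so the order of the set and the other higher genes depends on the measure. KCNH1 had the most, 14 sites, and 6 of the 71 genes (8.45%) had none, among them UGT1A6, TFF2 and THSD1, against 9.26% of the other higher, 5.59% of the lower and 11.2% of all coding genes. A motif is not a methylated site, and these tables hold no measure of m6A.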

How the data were processed

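RNA-seq of 4 HepG2 libraries, 2 per group, had been reduced by the authors to tables of genes, isoforms, exons and introns limited to changed features: all rows have adjusted p-values below 0.05 and at least 2-fold differences. Build hg18 and the programs TopHat 1.2.0, CASAVA 1.8, Cuffdiff 1.0.3, Cufflinks, DESeq 1.5.24 and HTSeq stand, without roles, in the submitters' processing notes. The authors deposited normalized counts as a signal, as group means for genes and introns and per library for exons, per the file headers. The deposited isoform values are FPKM, 1 per group. The authors' deposited log2 fold changes of genes and their p-values of genes, introns and isoforms were used as given. For exons the deposited log2 fold changes stand beside those of limma.

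Genes were selected by the 2 group means, and the members, roles and lists were chosen with earlier results of these data known. Reads per library were recovered from the means. Simulated reads of the knockdown libraries were recovered for 100% of 1977 genes, with the library factors given to the recovery. The inference of these factors from the means was not simulated. All members may be named, except 1 that is not reported here by name; full values were given for the 20 with the highest knockdown mean, the 15 with the lowest adjusted p, members of a list, with a listed intron or exon, or next to a threshold. Others named with values were chosen by role after their values were seen. Fold changes from recovered reads are scaled by the depth of the 2 libraries, with exact 95% counting intervals (SciPy 1.17.1, Python 3.11.15). Against 0 control reads the floor was 3 reads. Isoforms were matched by gene name. For exons, limma 3.58.1 (R 4.3.3) was fitted to log2(value + 1) without a block, and p-values were adjusted by Benjamini-Hochberg. Replicate numbers 1 and 2 occur in both groups, but the labels do not say that they mark a batch. Coordinates are from GENCODE 29 and sequences from RefSeq, not from hg18. Alternatives were other thresholds, pseudocounts, recentring, left-out libraries and a replicate block.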

Additional observations from a re-analysis of the deposited data

How the results depend on the processing

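Of 46 alternatives, 34 gave a like result, meaning a count within 1.5 times the reported one. For a single exon it meant the same direction and side of the threshold. A like count does not say that the same genes were counted. Recentring and the pseudocounts of 1 and 5 left the number of genes at 85, which the rule fixed in advance, so these settings test nothing. The number of genes, 85, became 35 with a control mean under 2, 137 with one under 10, 32 with a knockdown mean of at least 30, and 55 with the thresholds met in every library, the last chosen after seeing the data. It was 105 with a knockdown mean of at least 10, 64 with the authors' adjusted p under 0.01, and 81 to 89 when 1 recovered library was left out, an alternative chosen after seeing the data. Of the 85 genes, 75 remained without control library a, 76 without control library b, 80 without knockdown library a and 79 without knockdown library b. Genes with a listed isoform, 56, became 11 when isoforms under a mean of 0.5 FPKM were dropped, and 9 when 1 FPKM was added before the 2-fold minimum. Genes with a listed intron, 5, became 2 with the authors' adjusted p under 0.01. The limma calls over exons, 456, became 297 when recentred on the median of the listed exons, a shift made by the setting itself, and 338 to 407 when 1 library was left out. With the replicate block, limma called 447 exons, and the block changed neither member exon's call. Deviations of same-numbered libraries had a correlation of 0.00121 over 474 exons. These exons were selected on the same libraries, so the value cannot show whether a number marks a shared batch. Depth limits the folds of the 34 genes with 3 or fewer control reads most.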
